A study of Homo sapiens with 4 samples.

Results

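The core proteins that make and use microRNAs were followed in QK-knockdown Hs683 cells, a human glioma line, that had been transduced with miR-20a or with miR-NT, a control microRNA of scrambled, non-targeting sequence. The genes were the 10 named DROSHA, DGCR8, XPO5, DICER1, AGO1, AGO2, AGO3, TNRC6A, TNRC6B and TNRC6C. They were chosen by name, and the probe set (the group of short probes that report on a transcript) had to carry that gene's symbol alone. Of these 10 genes, 8 had such a probe set, among 17716 genes in the table, and each of the 8 had 1. The probe sets were 218269_at (DROSHA), 223057_s_at (XPO5), 206061_s_at (DICER1), 218287_s_at (AGO1), 225827_at (AGO2), 1553346_a_at (TNRC6A), 1558142_at (TNRC6B) and 227149_at (TNRC6C), where _s_at is the suffix Affymetrix gives to probes that can match more than a single transcript. AGO3 had none, and the 2 probe sets that carry the symbol of DGCR8 also carry that of the microRNA gene MIR1306, so neither gene was analysed here. Total RNA was read on 4 Affymetrix arrays, 2 per group, and values are log2 expression values as deposited.

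All 4 arrays carry the knockdown of QK (now QKI), which encodes an RNA-binding protein, and no array without it was analysed here. The labels do not describe the vectors, the knockdown construct or the level of miR-20a reached, and nothing in them tells whether each replicate came from its own culture; the p-values thus reflect array-to-array spread that may be purely technical. In such bulk samples a change in the make-up of the culture and a change in RNA per cell cannot be told apart.

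MicroRNAs are cut out of long nuclear transcripts by DROSHA with its partner DGCR8, carried to the cytoplasm by XPO5 and trimmed by DICER1 to a short duplex. An Argonaute protein keeps a single strand of it, and bases 2 to 8 of that strand, the seed, pair with target mRNAs. TNRC6 proteins, also called GW182, bind the Argonaute and bring in enzymes that shorten the poly(A) tail and remove the cap.

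The labels name miR-20a without its strand or the form in which it was added. The strand miR-20a-5p is shown here with the relatives that share its seed and its length of 23 bases. In the RefSeq table (GRCh38.p14) mature miR-20a-5p lies at chr13:91351072-91351094 on the + strand, and 8 mature human microRNAs, itself included, have the same seed. The sequences run 5′ to 3′ and the capitals mark the seed.
hsa-miR-20a-5p: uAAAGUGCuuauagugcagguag
hsa-miR-17-5p: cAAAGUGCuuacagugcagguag
hsa-miR-106a-5p: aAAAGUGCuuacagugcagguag
hsa-miR-20b-5p: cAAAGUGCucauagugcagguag
hsa-miR-93-5p: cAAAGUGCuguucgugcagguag
Compared over their 23 bases, miR-17-5p, miR-106a-5p and miR-20b-5p each differ from miR-20a-5p at 2 bases, and miR-93-5p at 4. The remaining sharers of the seed were miR-106b-5p, miR-519d-3p and miR-526b-3p. Mature microRNAs were not analysed here, so the arrays give no level for any of these strands.

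The arrays were alike as a whole, with medians from 6.43 to 6.45 and pairwise Pearson's r from 0.990 to 0.997 (taken across probe sets, not over independent replicates). They differed in the ACTB 5′ control signal, which measured 12.78 and 12.66 on the miR-NT arrays and 11.59 and 10.43 on the miR-20a arrays. The GAPDH 5′ control measured 13.89 and 13.81 on the miR-NT arrays and 13.17 and 12.30 on the miR-20a arrays. Such a signal can reflect RNA or labelling quality or the level of the mRNA itself, and these were not told apart here. QKI measured 8.14 and 7.92 on the miR-NT arrays and 7.52 and 7.08 on the miR-20a arrays (log2 fold change −0.73, SE 0.16, limma adjusted p = 0.106). Of 10 glial lineage markers 5 passed the filter on dim genes, among them VIM and SOX2, while GFAP, OLIG1, OLIG2, S100B and NES lay below it. For other cell types 3 of 5 measured immune (CD3E, CD79A and ITGAM), 2 of 5 epithelial (KRT5 and CLDN4) and 1 of 5 endothelial markers (PECAM1) passed. PTPRC, EPCAM, CDH1 and CDH5 were among those that did not. Across the arrays CD3E ranged from 7.35 to 7.71 and KRT5 from 6.63 to 7.06, both above SOX2 (5.745 to 6.053) and below VIM (14.02 to 14.317). Passing the filter was thus not particular to the glial list, and it does not tell which cell types were present. The summed marker signal on the log2 scale ranged from 8.45 to 8.47 with miR-NT and from 8.49 to 8.66 with miR-20a for the immune list, from 7.79 to 7.95 and from 7.72 to 7.999 for the epithelial list, and from 7.26 to 7.28 and from 7.31 to 7.45 for the endothelial list. Their part in the differences was not tested.

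Of the 8 measured genes 6 had lower values with miR-20a, where 49.5% of all 17716 genes did. The log2 fold change was below 0 for XPO5, DICER1, AGO2, TNRC6A, TNRC6B and TNRC6C and above 0 for DROSHA and AGO1. The median of the tested members was −0.27, and it reversed to 0.13 with the ACTB 5′ signal, itself lower on the miR-20a arrays, as a covariate. The median of all genes tested also changed sign with that covariate, from −0.02 to 0.05, and 42.4% were then below 0. The sizes of the 8 measured members ran from 1.07-fold to 1.40-fold, and none passed the test over all genes. The test (limma, threshold of 0.05 on the Benjamini-Hochberg adjusted p) used the 12402 genes left after the dimmest 30% were removed, which kept 6 of the 8 and removed DICER1 and TNRC6C. Of the 6 tested genes 0 were called, against 0.00806% of all genes tested (1 gene). At an unadjusted p under 0.05, XPO5 and TNRC6A were lower and none was higher, 2 of 6, where 13.2% of all genes tested were lower (1633) and 5.82% higher (722). After quantile normalization these counts over all genes were 1451 lower and 1584 higher. In the fit without a filter, 4 of the 8 measured genes were lower at that unadjusted level, XPO5, TNRC6A, DICER1 and TNRC6C, and none was higher. Of all 17716 genes 10.9% were lower in that fit (1924), and 1095 genes were higher.

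**Figure D1:**
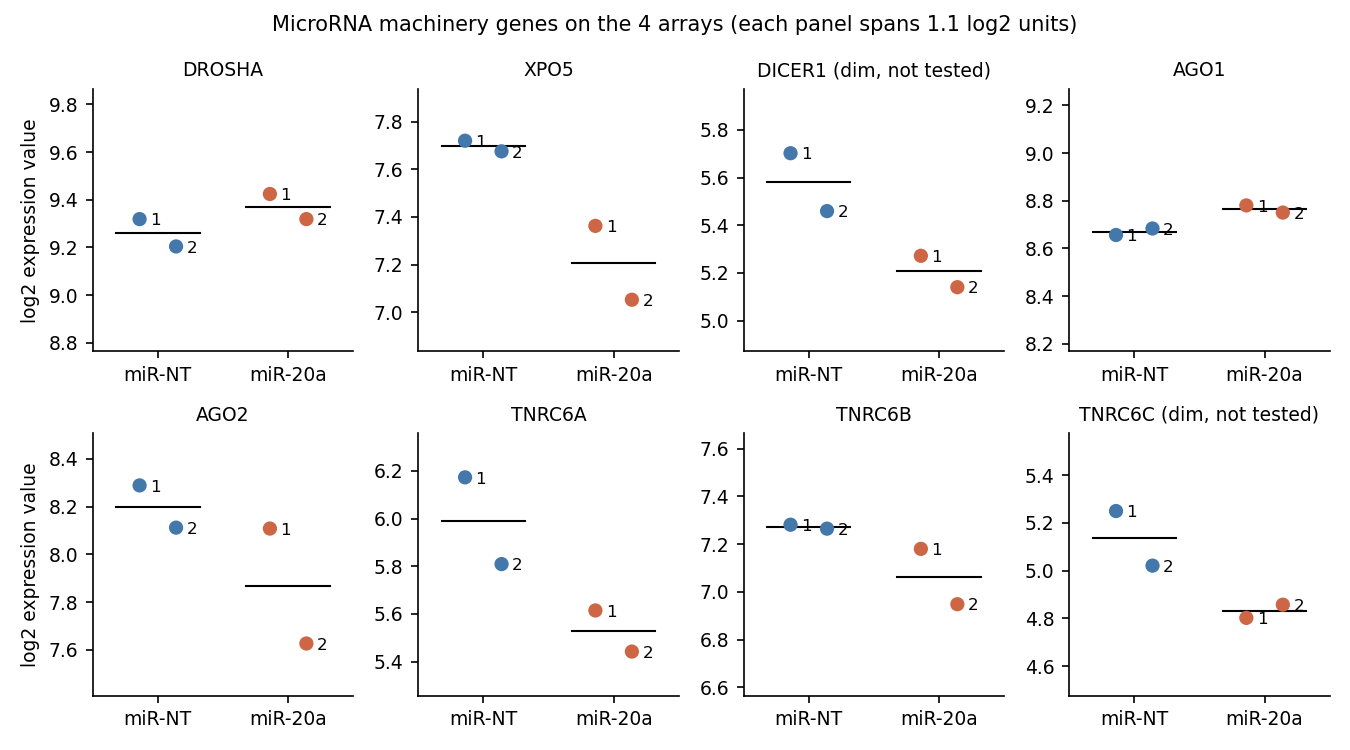
Log2 expression values of the 8 measured genes, 1 panel per gene. Points are single arrays, marked with their replicate number, in blue for miR-NT and orange for miR-20a, and black bars are group means (n = 2). The miR-20a points lie below the miR-NT points in 6 panels and above them in those of DROSHA and AGO1, with the groups almost touching for DROSHA and AGO2.

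Among the proteins of the nucleus and of export, DROSHA, the nuclease that releases the hairpin from the primary transcript, measured 9.32 and 9.20 on the miR-NT arrays and 9.42 and 9.32 on the miR-20a arrays. The groups were separated by only 0.00011, less than the 0.11 between the miR-NT replicates. Its log2 fold change was 0.11 (SE 0.10, 95% interval −0.13 to 0.35, limma adjusted p = 0.543). A decrease or an increase within that interval cannot be told from these arrays.

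XPO5, the carrier of precursor hairpins through the nuclear pore, measured 7.72 and 7.68 on the miR-NT arrays and 7.36 and 7.05 on the miR-20a arrays. Both miR-20a arrays were low and the miR-NT pair was close together, with a gap of 0.312 between the groups against 0.309 within the miR-20a pair. The log2 fold change was −0.49 (1.40-fold lower, SE 0.12, 95% interval −0.78 to −0.20), the smallest p among the tested members, and it did not pass over all genes (limma adjusted p = 0.136). Adding the ACTB 5′ signal to the model left −0.03 (SE 0.25).

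DICER1, the cytoplasmic nuclease that cuts the precursor, was dim on all arrays, with 5.70 and 5.46 under miR-NT and 5.27 and 5.14 under miR-20a. Its mean of 5.39 lay just under the lowest mean tested, 5.46, so it was left out. The miR-20a arrays were both lower, by a gap of 0.187 against 0.243 between the miR-NT replicates. In the fit without a filter its log2 fold change was −0.37 (SE 0.12, limma adjusted p = 0.209).

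The log2 fold changes of the 2 measured Argonaute genes had opposite signs, with 95% intervals that both included 0, and with the ACTB 5′ covariate both were above 0 (AGO1 0.14, AGO2 0.40). AGO1 measured 8.66 and 8.68 on the miR-NT arrays and 8.78 and 8.75 on the miR-20a arrays. The miR-20a arrays were both higher, by a gap of 0.067 that exceeded the 0.030 within the wider pair, the smallest such within-pair difference of the 8 genes. The log2 fold change was 0.10 (SE 0.09, 95% interval −0.13 to 0.32, limma adjusted p = 0.565). AGO2, the human Argonaute best known for cutting a fully paired target, measured 8.29 and 8.11 on the miR-NT arrays and 8.11 and 7.63 on the miR-20a arrays. Only miR-20a replicate 2 stood clearly low, since replicate 1 lay 0.0039 under miR-NT replicate 2. Its log2 fold change was −0.33 (SE 0.16, 95% interval −0.71 to 0.05, limma adjusted p = 0.304), and without miR-20a replicate 2 it was −0.09. The difference between AGO1 and AGO2 in their response was not tested.

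The 3 TNRC6 genes, whose proteins link the Argonaute to the deadenylases, all had lower values with miR-20a. With the ACTB 5′ covariate TNRC6B turned to 0.13, while TNRC6A was at −0.16 and TNRC6C at −0.35. TNRC6A measured 6.17 and 5.81 on the miR-NT arrays and 5.61 and 5.44 on the miR-20a arrays. The groups were apart by 0.194, less than the 0.364 between the miR-NT replicates. The log2 fold change was −0.46 (1.38-fold lower, SE 0.14, 95% interval −0.79 to −0.14, limma adjusted p = 0.171), and without miR-NT replicate 1 it was −0.28. TNRC6B measured 7.28 and 7.26 on the miR-NT arrays and 7.18 and 6.95 on the miR-20a arrays, so that the tight miR-NT pair lay above both. Its log2 fold change was −0.21 (SE 0.11, 95% interval −0.47 to 0.05, limma adjusted p = 0.335), and −0.09 without miR-20a replicate 2. TNRC6C, dim and left out of the test, measured 5.25 and 5.02 on the miR-NT arrays and 4.80 and 4.86 on the miR-20a arrays. It was the only gene of the 8 with the higher miR-20a value in replicate 2, and without a filter its log2 fold change was −0.31 (SE 0.11, limma adjusted p = 0.247).

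**Figure D2:**
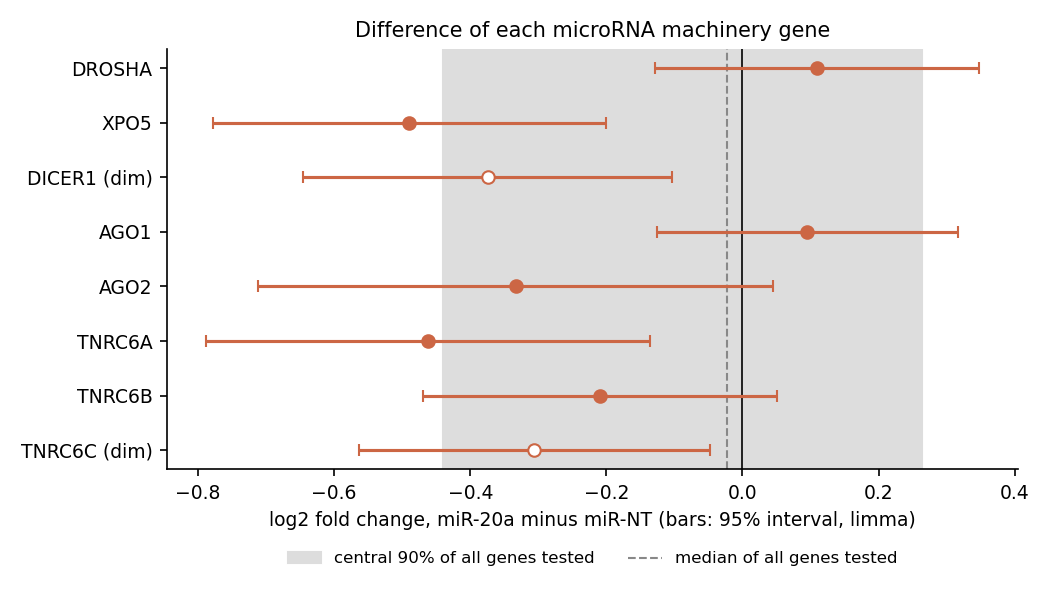
Log2 fold change (miR-20a minus miR-NT) of the 8 measured genes with its 95% interval from limma, n = 2 arrays per group. Open circles are the dim genes DICER1 and TNRC6C, from the fit without a filter, the grey band holds the central 90% of the 12402 genes tested (−0.44 to 0.26) and the dashed line is their median (−0.02). XPO5 and TNRC6A lie beyond the lower edge of the band and the other genes within it.

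The groups did not overlap for any of the 8 measured genes, 6 lower and 2 higher with miR-20a. Over all 17716 genes 27.2% were lower and 26.7% higher without overlap. The gap between the groups was wider than both within-group differences for 2 of the 8, XPO5 and AGO1, where 17.7% of all genes showed this. The median log2 fold change of the 6 tested genes was −0.27, with 4 below 0, against −0.02 for all genes tested, 53.8% of which were below 0. Over all 8 genes the median was −0.32 in the fit without a filter, where that of all genes was 0.003.

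Arrays of the same group differed as well. Replicate 2 was below replicate 1 in 7 of the 8 genes within the miR-20a pair, against 52.9% of all genes, by 0.48 for AGO2 and 0.31 for XPO5. Within the miR-NT pair it was also below in 7 of the 8, against 60.6% of all genes. XPO5, DICER1, AGO2, TNRC6A and TNRC6B, 5 of the 8, took their 4 values in the same order as the ACTB 5′ signal, highest on miR-NT replicate 1 and lowest on miR-20a replicate 2, an order that 15.1% of all genes followed. With that signal as a covariate AGO2 and TNRC6B changed sign, DROSHA (0.28) and AGO1 stayed above 0, and XPO5, TNRC6A, DICER1 (−0.15) and TNRC6C stayed below. Standard errors in that fit were 0.25, and no member passed. The part of RNA or labelling quality in the differences was not tested.

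Each array was also left out in turn. No sign changed in any of the 8 genes, which was fixed beforehand, since their groups did not overlap. The sizes below show how far each value moved. XPO5 ranged from −0.64 to −0.33, DICER1 from −0.50 to −0.25, AGO2 from −0.57 to −0.09, TNRC6A from −0.64 to −0.28, TNRC6B from −0.33 to −0.09 and TNRC6C from −0.42 to −0.19. DROSHA ranged from 0.05 to 0.17 and AGO1 from 0.08 to 0.11. Without miR-20a replicate 1 there were 3 calls, all lower, for XPO5 (limma adjusted p = 0.000754), AGO2 (0.003) and TNRC6A (0.00802). That fit takes the spread of miR-20a from the miR-NT pair and called 15.1% of all genes tested. The same 3 genes were not called in any other fit run.

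**Figure D3:**
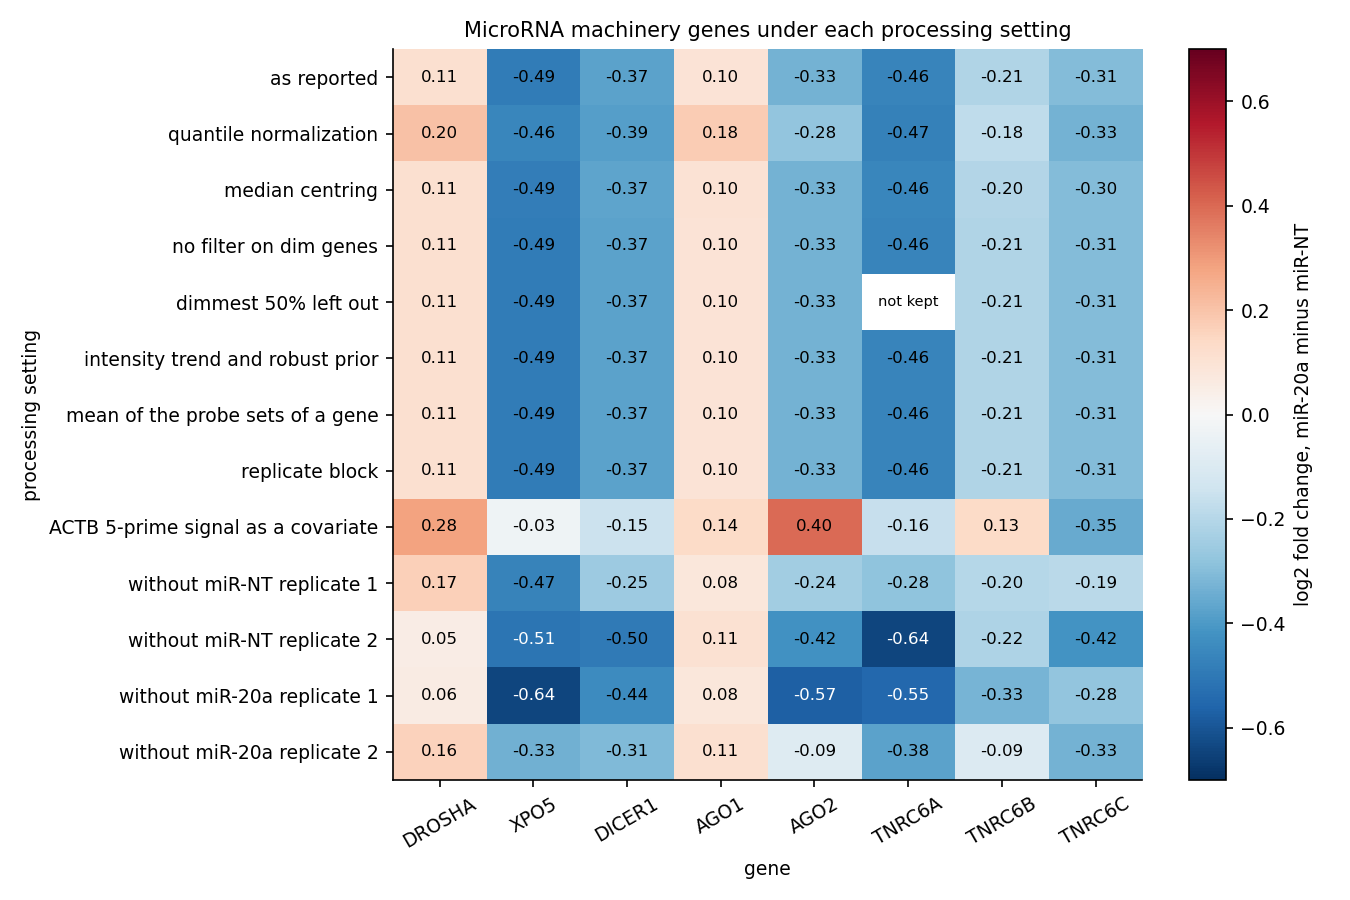
Log2 fold change (miR-20a minus miR-NT, colour and printed value) of the 8 measured genes under each of 13 processing settings, 1 setting per row. The white cell is TNRC6A, which was not kept with the dimmest 50% left out; DICER1 and TNRC6C come from unfiltered fits throughout. Signs differ from the reported ones for AGO2 and TNRC6B with the ACTB 5′ covariate and in no other cell. Only the 2 scalings and that covariate could change a sign. The filters, the prior, averaged probe sets and the block leave these fold changes as they are. Leaving out an array cannot change the sign where groups do not overlap.

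XPO5 was used to ask which genes had the most similar pattern, measured as the Euclidean distance between the 4 centred log2 values. The 3 nearest of all genes tested were CTNNA1, which encodes the adhesion protein alpha-catenin (distance 0.0141), C6orf136 (0.0235) and the phosphatase gene MTMR4 (0.0299). Their log2 fold changes were −0.50, −0.49 and −0.49, near that of XPO5 because of how they were picked. Within a much wider limit of 0.2 lay 662 genes, of 12402 tested, so a broadly similar pattern was not particular to these 3.

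Partners of the core proteins were described by role from 5 lists. Of 83 listed genes 64 were tested, 12 more were measured but dim, and 0 were called in either direction. The share called over all genes tested was 0.00806%. Over the 64, 45 log2 fold changes were below 0 and 19 above, with a median of −0.11, where 53.8% of all genes tested were below 0. At an unadjusted p under 0.05, 14 were lower and 5 higher, against 13.2% and 5.82% of all genes tested.

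For partners in nuclear processing and export, 10 of the 13 tested genes were below 0 and the median was −0.13. SRRT, which joins the cap-binding complex to primary microRNA processing, measured 6.24 and 6.22 on the miR-NT arrays and 5.87 and 5.40 on the miR-20a arrays (log2 fold change −0.59, limma adjusted p = 0.139). NCBP1, the large subunit of that cap-binding complex, was at −0.49, GEMIN4, a protein found with Argonaute and the SMN complex, at −0.47, and ILF2, a double-stranded RNA-binding partner, at −0.38. All 4, named for having the smallest p of the list, were lower on both miR-20a arrays. Their limma adjusted p ranged from 0.139 to 0.219. In the whole list 6 of 13 tested genes were lower without overlap and 3 higher, against 3852 and 3117 of all 12402 genes tested. RAN, the GTPase that XPO5 needs to hold its cargo, was at −0.23.

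Partners of Dicer and the Argonautes had a median of −0.11 over 17 tested genes, 11 below 0 and 6 above. HSP90AB1, a chaperone used when an Argonaute is loaded, measured 11.66 and 11.59 on the miR-NT arrays and 10.84 and 9.80 on the miR-20a arrays (log2 fold change −1.30, SE 0.28, limma adjusted p = 0.111). Its miR-20a replicates differed by 1.04, more than the gap of 0.752 between the groups. FMR1, an RNA-binding protein of translational control, was at −0.40, whereas LIMD1, a scaffold that binds Argonaute and TNRC6 proteins, and ZC3H7B were both at 0.27. The Dicer partners TARBP2 and PRKRA were at −0.10 and −0.27.

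Among the enzymes that act after target binding, the deadenylation list had a median of −0.07 over 15 tested genes, 10 below 0. TOB1, an adaptor that recruits the CCR4-NOT deadenylase, measured 7.66 and 7.24 on the miR-NT arrays and 6.40 and 6.12 on the miR-20a arrays, with both miR-20a arrays far below (log2 fold change −1.19, 2.28-fold lower, SE 0.16, limma adjusted p = 0.0726). With all 4 arrays it passed after median centring (limma adjusted p = 0.0492) and with an intensity trend and robust prior (0.0489), and it did not pass in the other 6 alternatives, where the adjusted p ranged from 0.0611 to 0.319. The deadenylase subunits CNOT8 and CNOT6 were at −0.50 and −0.23, the poly(A)-binding protein inhibitor PAIP2 at −0.34 and CNOT1, the scaffold of the complex, at 0.17.

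The decapping list had a median of −0.17 over 13 tested genes, 9 below 0 and 4 above. PATL1, a decapping scaffold, measured 6.03 and 6.01 on the miR-NT arrays and 5.69 and 5.68 on the miR-20a arrays, a tight pair on each side (log2 fold change −0.34, limma adjusted p = 0.158). LSM14B was also at −0.34. The decapping cofactor DCP1B (0.35) and the cap-binding translational repressor EIF4E2 (0.25) were higher on both miR-20a arrays. In this list 6 of 13 tested genes were lower without overlap and 2 higher, against 3852 and 3117 of all 12402 genes tested.

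Enzymes that tail or degrade microRNAs had a median of −0.25 over 6 tested genes, 5 below 0. XRN2, a nuclear exonuclease, measured 8.50 and 8.24 on the miR-NT arrays and 7.53 and 6.65 on the miR-20a arrays (log2 fold change −1.28, SE 0.26, limma adjusted p = 0.0962). The terminal nucleotidyltransferases TENT2 and TUT4, which add bases to the 3′ ends of microRNAs or their precursors, were at −0.39 and −0.34, and ZSWIM8, part of the ubiquitin ligase of target-directed microRNA decay, at −0.15. With the ACTB 5′ covariate HSP90AB1 turned to 0.22 and XRN2 to 0.05, and TOB1 was at −0.72 (SE 0.25 for each). Without miR-20a replicate 2 the log2 fold changes were −0.79 for HSP90AB1, −1.05 for TOB1 and −0.84 for XRN2. These 3 of the 64 were called in that fit, which again takes the spread of miR-20a from the miR-NT pair and called 2.1% of all genes, whereas 0 of the 64 were called with one or the other miR-NT array left out.

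**Figure D4:**
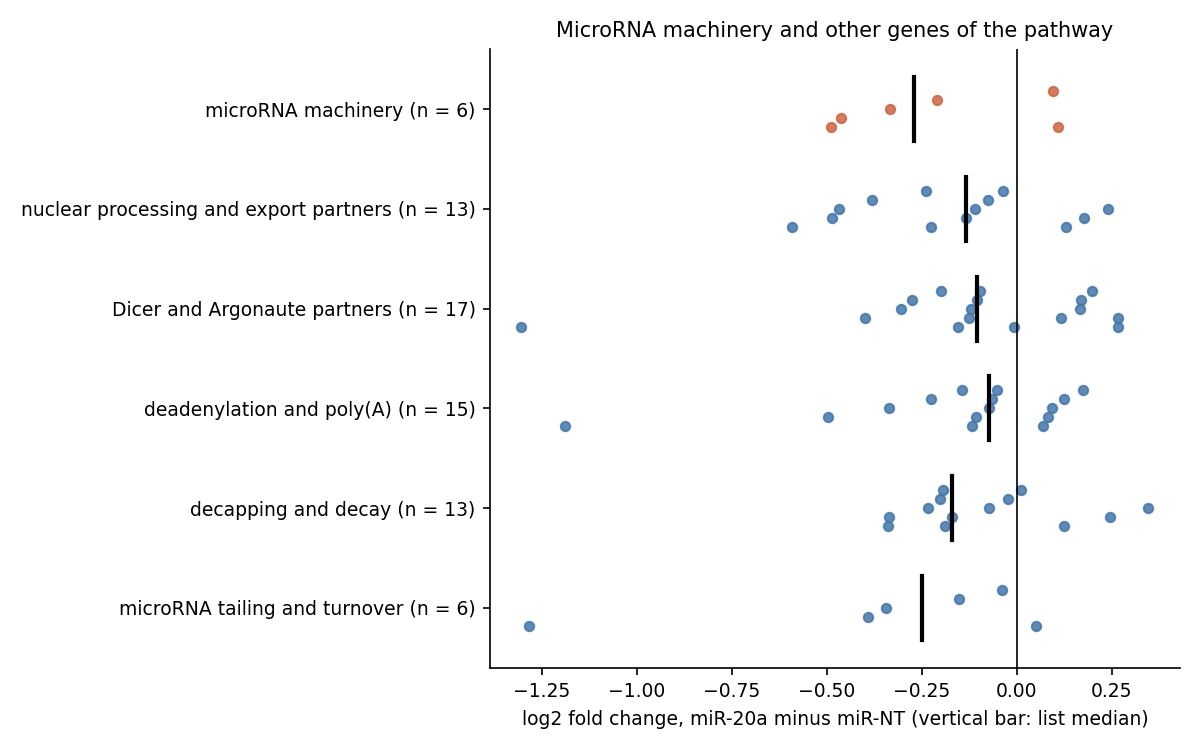
Log2 fold changes (miR-20a minus miR-NT) of the tested genes of the microRNA machinery (orange, n = 6) and of 5 lists of partner genes (blue), 1 point per gene, spread vertically for visibility. Vertical bars are list medians, all below 0, from −0.27 for the machinery to −0.07 for deadenylation and poly(A); the points left of −1 are HSP90AB1, TOB1 and XRN2.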

How the data were processed

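Per the submitters' processing notes, values came from the R package affy (version not named). The deposited values were taken as log2 expression from their range; for summarisation, background correction and normalization, the method was not given in the sources used here. Groups came from source names and replicate numbers from titles. Of 20323 probe sets, 18062 had 1 gene symbol, 886 several and 1375 none; symbols were updated through gene identifiers in the RefSeq gene table (18036 matched). The 3 control probe sets were left out of the gene tests, and per gene the probe set with the highest mean was used (338 genes had several). The lowest 30% of 17716 genes by mean over the 4 arrays were removed.

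The test was that of limma 3.58.1, run in R 4.3.3 (lmFit, eBayes, two-sided, no covariate, Benjamini-Hochberg over 12402 genes, threshold 0.05), with 2 residual and 5.53 prior degrees of freedom. Only 2 arrays a group limit the precision, and an exact permutation test could not go below 0.333. The fit was tested on simulated data. The members and lists were chosen with earlier results of these data known, so no list test was run. Named genes were all measured members, the 4 smallest p of each partner list, QKI and the 3 nearest profiles to the member with the smallest p; RAN, TARBP2, PRKRA and CNOT1 were added after their values were seen. Alternatives were 2 scalings, 2 filters, another prior, averaged probe sets, the replicate block, an ACTB 5′ covariate and each array left out.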

Additional observations from a re-analysis of the deposited data

How the results depend on the processing

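The count of genes called over all genes, 1 as reported, was 5 after quantile normalization, 47 after median centring, 4 with the dimmest 50% left out, 24 with an intensity trend and robust prior and 6 with the ACTB 5′ covariate. It ranged from 0 to 1869 with an array left out, highest without miR-20a replicate 1 (1869, against 261 without miR-20a replicate 2 and 0 with one or the other miR-NT array left out); the cause was not tested. Of the machinery genes 0 were called in every fit with all 4 arrays, and from 0 to 3 with an array left out. The count of called partner genes was 1 (TOB1) after median centring and 1 (TOB1) with the trend and robust prior, and ranged from 0 to 18 with an array left out. The machinery's median log2 fold change ranged from −0.44 to −0.09 with an array left out. With the ACTB 5′ covariate it reversed to 0.13, where the median of all genes tested was 0.05. AGO2 (0.40) and TNRC6B (0.13) reversed as well, and the cause was not tested. With the replicate number as a block, 0 genes were called. Deviations of same-numbered arrays from their group means correlated at 0.267 across genes, but with 2 pairs and no label for a shared batch the numbers were not taken as pairs; the block changed no call among the machinery or partner genes. TNRC6A had no value with the dimmest 50% left out.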
